A study of Mus musculus with 9 samples.

Results

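The receptor repertoire of a T-cell library titled CD4 was compared with that of a library mixed from several lymph nodes. The first came from deep cervical lymph nodes (dCLN) and is labelled WT. The second held cells of 3 node types, dCLN, superficial cervical nodes (sCLN) and inguinal nodes (iLN), of both WT and 5xFAD mice. The 5xFAD line is a transgenic mouse model of Alzheimer's disease. Both libraries were chosen by their titles, not by a measured value. A cell was a barcode with 1 productive chain of the T-cell receptor beta locus (TRB) and 1 or 2 productive chains of the alpha locus (TRA). By this rule the CD4-titled library held 4930 cells of 6901 barcodes, and the mixed library 2873 of 4052. Together these 7803 cells made up part of 23051 cells in 9 libraries. That total is 18060 cells in 8 libraries without 1 library that lists the CD4-titled cells again. With 1 library a side, differences between the CD4-titled and mixed libraries have no replicate check. The intervals given are exact Clopper-Pearson 95% intervals, which cover counting error only.

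An alpha-beta T cell builds its receptor by joining one V and one J segment at the TRA locus and one V, one D and one J segment at the TRB locus. Bases are trimmed and added at the joints, and the stretch across the joint, the junction, encodes the loop that lies over the peptide held by an MHC molecule. The first and second loops, encoded by the V segment alone, mostly face the MHC molecule itself, which differs in class between CD4 and CD8 T cells. V gene use therefore differs between these lineages, and it also differs between mouse strains, whose TRA loci carry different numbers and alleles of V genes. T cells that descend from one cell share both junctions and form a clone.

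The mice were females aged 10 to 11 months. Cells of different tubes were marked with 4 hashtag antibodies and pooled in equal numbers, and samples of above 87% viability were used. The labels do not give the number of animals, the promoter of the transgene or how CD4 cells were obtained, and the receptor tables give no hashtag per cell, so the mixed library was not divided by node or genotype. A further CD4-titled library, labelled 5xFAD, shared 6825 barcodes and 12672 combinations of barcode and junction with the one labelled WT. Both are the same cells, so the genotype of the CD4-titled library cannot be told from its label, and the repeat was left out. The tables hold receptor chains only, so the level of the CD4 gene was not analysed here. The 6 libraries of a single node and genotype (10257 cells) are given as a range beside the results. They were called against another set of germline alleles, so a difference from their range may also be one of calling, which was not tested.

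The CD4-titled and mixed libraries were alike in recovery and unlike in depth per molecule. The cell rule kept 71.4% (70.4 to 72.5) and 70.9% (69.5 to 72.3) of barcodes. Barcodes with a TRB chain alone made up 19.8% and 19.2%, against 24.4% to 45.1% in the single-node libraries. Barcodes with more chains than the rule allows, which can be doublets, made up 4.85% (4.36 to 5.39) and 5.58% (4.89 to 6.33) and were set aside. Cells with 2 TRA chains made up 8.72% (7.95 to 9.54) and 9.50% (8.45 to 10.6). The median chain rested on 4 unique molecular identifiers (UMIs) for TRA in both, and on 8 and 7 for TRB. Reads per UMI had a median of 434 in the CD4-titled and 983 in the mixed library, a ratio of 2.26. Both libraries shared 39 barcodes and 0 combinations of barcode and junction.

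The alleles of the TRA chains set these libraries apart. The V region of a TRA chain, up to the junction, was identical to a V gene of the GRCm38 reference, the C57BL/6J genome, in 2115 of 6049 chains of the CD4-titled library (35.0%, 33.8 to 36.2). In the mixed library this held for 3439 of 3617 chains (95.1%, 94.3 to 95.8). The single-node libraries lay at 54.0% to 55.2% in WT and 12.9% to 14.99% in 5xFAD. The CD4-titled library was thus below the WT libraries and above the 5xFAD libraries, and the mixed library was above them all, although its label names both genotypes. At the TRB locus 99.9% of chains matched in both libraries, with 4 and 3 chains that did not. The single-node libraries lay at 94.6% to 96.0% there, so they held a level of TRB mismatch that the compared libraries did not.

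Alleles of the J genes were split in the same way. The second allele of TRAJ9 made up 34.9% of its chains in the CD4-titled and 96.3% in the mixed library, and that of TRAJ34 made up 28.5% and 96.6%. The second allele of TRAJ31 made up 57.2% and 4.47%, and that of TRAJ32 made up 85.6% and 3.49%. For TRAJ35 it was 48 of 53 chains against 0 of 17. Match status was read in 10 TRAV subgroups in which under 2% of chains of the 5xFAD single-node libraries matched the reference, called informative below. Single chains of these subgroups with TRAJ9, TRAJ31, TRAJ32 or TRAJ34 were then read at both ends, without TRAJ35. A V region that matched the reference came with the J allele most common in the mixed library in 118 of 119 CD4-titled chains. A V region that did not match came with the other J allele in 295 of 320. TRAJ31 was split less cleanly, since its first allele came with a matching V region in 50 of 73 such chains. In the 5xFAD single-node libraries the second allele made up 77.5% to 81.3% of TRAJ31 chains, against 100% of TRAJ32 chains. Among cells with 2 TRA chains of informative subgroups, 48 of 108 in the CD4-titled library carried 1 matching and 1 other chain, 2 carried a matching pair and 58 carried none. In the mixed library 55 of 63 carried a matching pair, 8 carried 1 of each and 0 carried none.

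Gene use was compared over distinct clonotypes, so that an expanded clone counted as 1, with 4792 clonotypes in the CD4-titled and 2833 in the mixed library. Of 96 V and J features, 90 had a mean of at least 20 clonotypes. TRAV genes were summed by subgroup number, because duplicated copies within a subgroup are nearly identical. Of these 90 features, 2 were at least 2-fold higher in the CD4-titled library (2.22%), TRAV5 and TRAJ35, and 3 were at least 2-fold higher in the mixed library (3.33%), TRBV12-1, TRBV29 and TRBV17. Together that is 5.56% of the features. The median absolute log2 ratio was 0.28, against 0.02 between the CD4-titled library and its repeat. The repeat lists the same cells, so its value is no measure of sampling or of spread between libraries. Between the CD4-titled and mixed libraries the median was 0.40 over 20 TRBV genes and 0.13 over 12 TRBJ genes. For 16 TRAV subgroups it was 0.26 and for 42 TRAJ genes 0.30. By this median TRBV genes were the most unlike class and TRBJ genes the most alike. Just inside the 2-fold limit lay TRBV17 with a log2 ratio of -1.15 and TRAV5 with 1.17, and just outside it TRBV14 with -0.93 and TRAJ52 with 0.91.

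**Figure D1:**
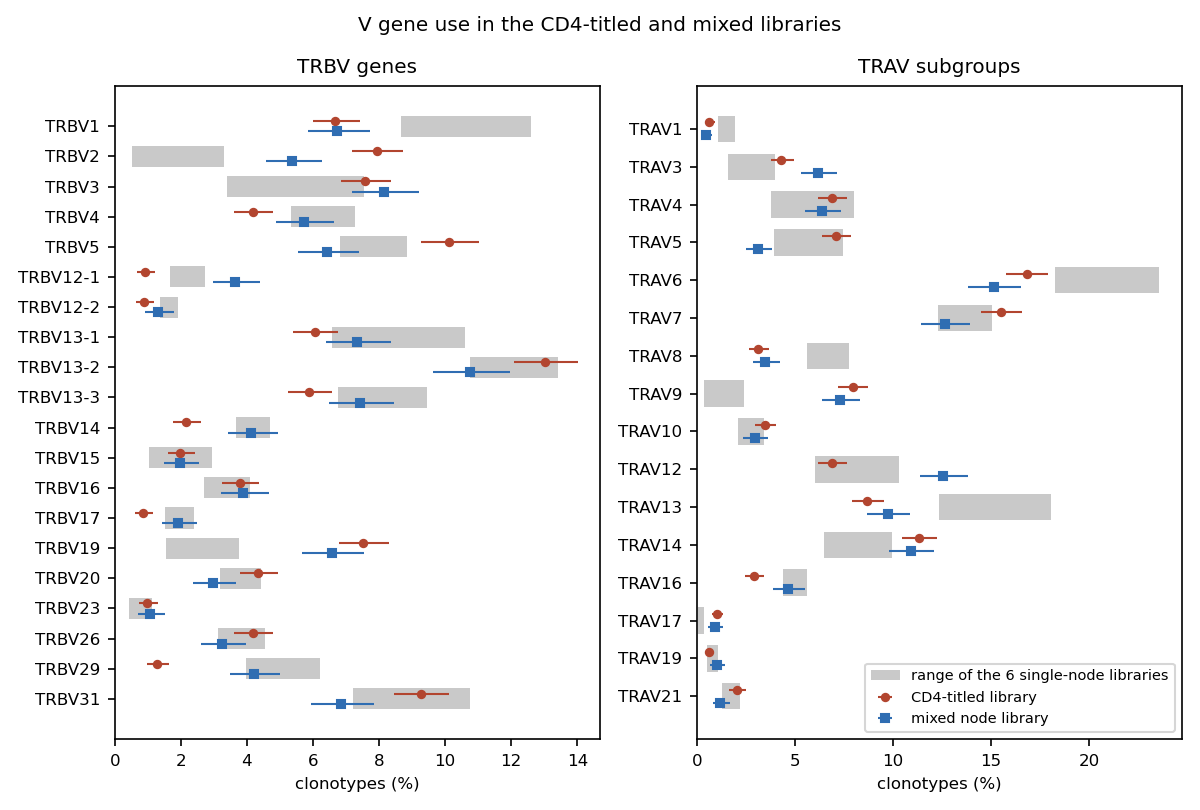
Share of clonotypes (%) of each TRBV gene (left) and TRAV subgroup (right) in the CD4-titled library (red circles) and the mixed library (blue squares), with exact 95% intervals as bars and the range of the 6 single-node libraries in grey. TRBV12-1, TRBV17 and TRBV29 are lower in the CD4-titled library, TRAV5 is higher there, and TRBV19 and TRAV9 lie above the grey range in both.

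Among TRBV genes, which encode the V domain of the beta chain, the largest differences were genes low in the CD4-titled library. TRBV12-1 (GRCm38 chromosome 6, 41113550 to 41114067) made up 0.918% of its clonotypes (0.668 to 1.23) and 3.64% in the mixed library (2.98 to 4.39), a log2 ratio of -1.98. The single-node libraries held 1.68% to 2.73%, so the CD4-titled library lay below and the mixed library above that range. TRBV29 (41271394 to 41271881) made up 1.27% (0.975 to 1.63) and 4.20% (3.49 to 5.01), a log2 ratio of -1.72. Here the mixed library lay within the range of the single-node libraries, 3.98% to 6.22%, and the CD4-titled library below it. TRBV17 (41163062 to 41163556) followed the same pattern, with 0.856% (0.615 to 1.16) against 1.91% (1.44 to 2.48) and a range of 1.53% to 2.41%. TRBV14, just short of 2-fold, made up 2.17% (1.78 to 2.62) and 4.13% (3.43 to 4.93), with a range of 3.67% to 4.70%.

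The TRBV genes highest in the CD4-titled library relative to the mixed one differed less. TRBV5 (41062332 to 41062803) made up 10.1% (9.28 to 11.0) and 6.42% (5.55 to 7.39), a log2 ratio of 0.65, with the single-node libraries at 6.83% to 8.84% in between. TRBV2 (41047340 to 41047995) made up 7.93% (7.18 to 8.73) and 5.37% (4.56 to 6.26), a log2 ratio of 0.56. TRBV20 (41188273 to 41188977) made up 4.34% (3.78 to 4.96) and 2.97% (2.37 to 3.66), a log2 ratio of 0.54. In all, 7 TRBV genes were higher and 13 lower in the CD4-titled library, with a median log2 ratio of -0.07 against 0.04 over all 90 features.

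The low TRBV genes were low in the CD4-titled library whichever TRA allele a clonotype carried. Clonotypes with a TRA chain of an informative subgroup that matched the reference held TRBV12-1 in 6 of 599 (1.00%, 0.369 to 2.17), and those with a chain that did not match in 19 of 1880 (1.01%, 0.6095 to 1.57). Matching clonotypes of the mixed library held it in 50 of 1271 (3.93%, 2.93 to 5.15). For TRBV29 these values were 0.835% (0.272 to 1.94), 1.54% and 4.41% (3.35 to 5.68). For TRBV17 they were 0.835% (0.272 to 1.94), 0.585% and 2.20% (1.47 to 3.17). In matching clonotypes the TRBV17 intervals of both libraries thus overlap. TRBV5 stood at 10.2% and 10.1% in the CD4-titled library and at 6.45% in the mixed library. Match status was read on the TRA chain and says nothing of which TRB allele the cell carries.

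Contig length bears on a few V genes in both libraries. Contigs over 600 nucleotides made up 16.0% and 14.7% of all contigs, against 1.53% to 6.53% in the single-node libraries. TRBV19 chains were long in 95.3% (93.1 to 96.9) and 93.4% (89.6 to 96.1), with a median of 260 bases ahead of the V gene in both libraries. Its share of clonotypes was 7.51% in the CD4-titled and 6.57% in the mixed library, both above the 1.57% to 3.77% of the single-node libraries. With contigs of at most 600 nucleotides alone, TRBV19 fell to 0.544% and 0.285%, both below the range of 0.719% to 1.55% found in the same way in the single-node libraries. TRBV2 was long in 46.6% and 48.5% of its chains. Its short-contig shares of 5.12% and 3.52% kept the CD4-titled library above the mixed one, and both above the 0.544% to 2.92% of the single-node libraries. TRBV3 was long in 52.9% and 64.5% of its chains. Its shares of 7.58% and 8.15% became 4.55% and 3.52% with short contigs, so the direction reversed. Both short-contig shares lay within the 2.63% to 4.75% of the single-node libraries. TRAV17 was long in 92.4% and 96.6% of its chains, and its shares of 1.02% and 0.918% became 0.115% and 0%. TRBV19, TRBV3 and TRAV17 were singled out after their values were seen.

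The J genes of the TRB locus, which lie in 2 clusters each with its own constant gene, were used alike. The largest ratio of a TRBJ gene was 1.26-fold. TRBJ2-7 (41543810 to 41543856) was the highest in the CD4-titled library relative to the mixed one, at 17.6% (16.5 to 18.7) and 14.01% (12.8 to 15.3), a log2 ratio of 0.33, with single-node libraries at 16.0% to 18.9%. TRBJ2-3 was the lowest, at 9.12% (8.32 to 9.97) and 11.4% (10.3 to 12.6), a log2 ratio of -0.32, with a range of 9.03% to 10.5%. In both cases the mixed library was the one outside the range. TRBJ1-3 stood at 6.07% and 5.29%, TRBJ1-5 at 2.98% and 2.75%, TRBJ1-1 at 12.5% and 11.7%, TRBJ2-5 at 12.8% and 12.3%, and TRBJ2-4 at 8.47% and 8.30%. TRBJ1-6 stood at 3.23% and 3.39%, TRBJ1-4 at 7.07% and 7.66%, TRBJ1-2 at 6.20% and 6.85%, TRBJ2-1 at 8.51% and 9.88%, and TRBJ2-2 at 5.43% and 6.42%. The TRBJ2 cluster as a whole made up 61.9% (60.5 to 63.3) and 62.3% (60.5 to 64.1), both below the 63.4% to 68.9% of the single-node libraries.

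The higher TRBJ2-7 share was spread over V genes. It was higher in the CD4-titled library within 14 of 20 TRBV genes and lower within 6. The commonest TRB combination there, TRBV13-2 with TRBJ2-7, made up 2.42% of clonotypes (2.00 to 2.90), against 1.31% (0.921 to 1.80) in the mixed library. TRBV5 with TRBJ2-7 made up 2.27% (1.87 to 2.74) and 1.09% (0.745 to 1.55), and TRBV31 with TRBJ2-7 made up 1.52% (1.20 to 1.91) and 0.565% (0.323 to 0.916). In the mixed library TRBV13-2 with TRBJ2-5 led, at 1.98% (1.50 to 2.56), and this combination stood at 1.84% (1.48 to 2.26) in the CD4-titled library. The libraries held 236 and 240 distinct TRB V-J combinations. Every TRBJ1 clonotype with a constant gene call carried TRBC1 (1760 of 1760 and 1036 of 1036), and 0 of 2942 and 0 of 1758 TRBJ2 clonotypes did.

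Counted over all contigs, the TRAV subgroups known for lineage bias were at similar levels in both libraries. TRAV4 and TRAV14, which in mice are known for use by CD4 T cells, made up 18.2% of its clonotypes (17.2 to 19.4) and 17.3% of the mixed library (15.9 to 18.7), with single-node libraries at 11.997% to 17.8%. TRAV14 alone stood at 11.3% (10.4 to 12.3) and 10.9% (9.78 to 12.1), and TRAV4 at 6.91% (6.21 to 7.66) and 6.39% (5.52 to 7.35). TRAV9, known for use by CD8 T cells, made up 7.95% (7.20 to 8.75) and 7.31% (6.38 to 8.33). These intervals overlap, and both shares were above the 0.350% to 2.41% of the single-node libraries. With contigs of at most 600 nucleotides TRAV9 made up 5.98% and 2.57%, a log2 ratio of 1.21, since 37.9% (33.5 to 42.4) of its chains in the CD4-titled library and 70.3% (64.3 to 75.8) in the mixed library were longer than that. With ambiguous gene calls left out, which made up 17.7% and 48.5% of TRA chains, TRAV4 and TRAV14 together stood at 16.2% and 10.3%. An ambiguous call names several genes, also where these are copies within a subgroup. This setting therefore drops clonotypes of subgroups with several copies.

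TRAV5 was the only one of 16 TRAV subgroups past 2-fold with all productive contigs used. With contigs of at most 600 nucleotides TRAV9, at a log2 ratio of 1.21, and TRAV12, at -1.14, passed it too, and with ambiguous gene calls left out TRAV16, at -1.16, and TRAV19 did so while TRAV5 did not. Its 9 annotated genes lie on chromosome 14 between 52622566 and 53704514. It made up 7.12% of CD4-titled clonotypes (6.40 to 7.88) and 3.14% of mixed ones (2.53 to 3.85), a log2 ratio of 1.17, with the single-node libraries at 3.96% to 7.44%. The next were TRAV21 with 2.05% (1.66 to 2.49) and 1.20% (0.833 to 1.67), a log2 ratio of 0.76, and TRAV1 with 0.647% (0.440 to 0.917) and 0.459% (0.245 to 0.783), where the intervals overlap. Both TRAV1 shares lay below the 1.09% to 1.93% of the single-node libraries. With ambiguous gene calls left out TRAV21 made up 2.49% and 2.34%, a log2 ratio of 0.0755. TRAV21 has 1 annotated gene, so its shares rise when clonotypes of subgroups with several copies are dropped. In the other direction TRAV12, with 10 annotated genes between 52844465 and 53778873, made up 6.91% (6.21 to 7.66) and 12.6% (11.4 to 13.8), a log2 ratio of -0.86. Without ambiguous gene calls its ratio was 0.47. TRAV19 made up 0.626% (0.423 to 0.892) and 1.02% (0.687 to 1.47), a log2 ratio of -0.71, and TRAV16 made up 2.92% (2.46 to 3.44) and 4.66% (3.91 to 5.50), a log2 ratio of -0.67. In all, 10 subgroups were higher and 6 lower in the CD4-titled library, with a median log2 ratio of 0.12.

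The TRAV5 difference lay in chains that do not match the reference. Over the 10 informative subgroups, TRAV5 made up 6.34% (4.53 to 8.60) of the 599 matching clonotypes of the CD4-titled library and 16.1% (14.5 to 17.9) of its 1880 other clonotypes. In the 1271 matching clonotypes of the mixed library it made up 6.29% (5.02 to 7.77), close to the first of these. Only 11.9% (9.07 to 15.3) of TRAV5 chains in the CD4-titled library matched the reference, the lowest of the informative subgroups, against 32.5% (28.0 to 37.2) of TRAV4 chains. TRAV1 was near it, at 14.9% (6.20 to 28.3). A low match of TRAV5 was not particular to this library. In dCLN, sCLN and iLN of WT it was 20.0%, 24.1% and 24.7%, against 44.5%, 45.6% and 48.7% over the informative subgroups. In the mixed library these values were 87.8% and 93.7%. TRAV16 behaved otherwise, at 5.34% and 5.74% of matching and other clonotypes in the CD4-titled library and 9.52% (7.96 to 11.3) of matching clonotypes in the mixed library. TRAV21 likewise stood at 4.17% and 3.88% against 2.36% (1.60 to 3.35). TRAV14 was highest in matching clonotypes of the CD4-titled library, at 28.4% (24.8 to 32.2), against 19.8% (18.1 to 21.7) in its other clonotypes and 23.1% (20.8 to 25.5) in the mixed library.

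**Figure D2:**
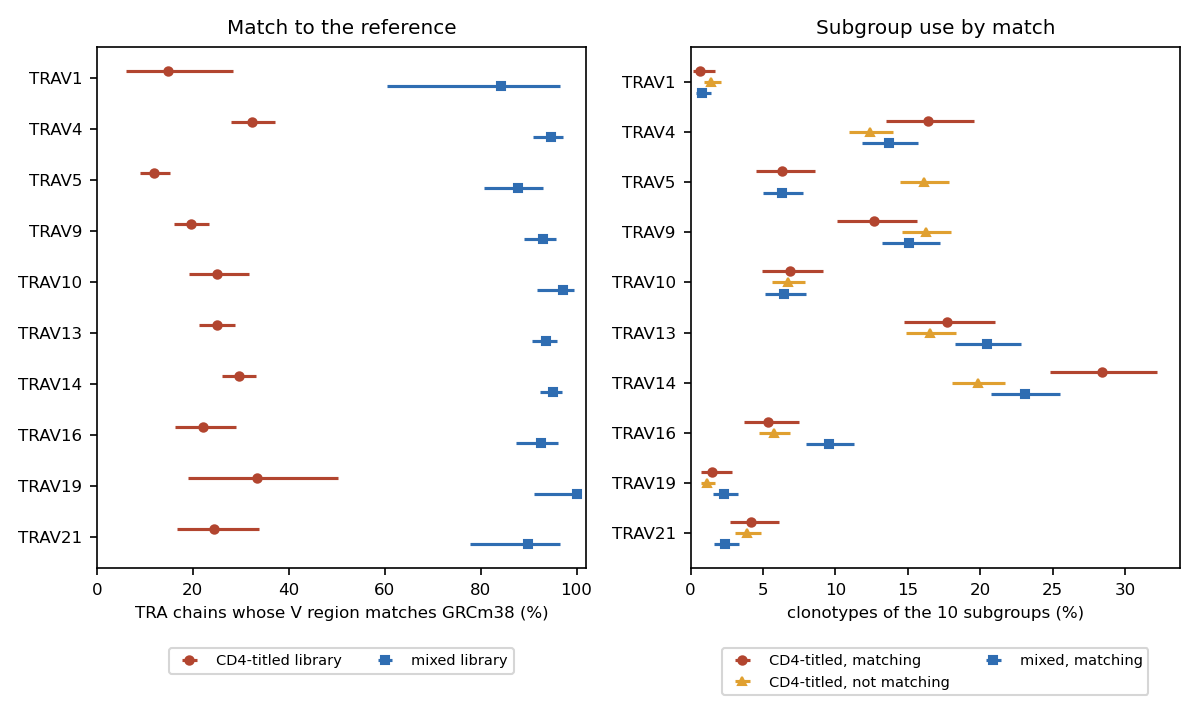
Left, share (%) of TRA chains of each informative subgroup whose V region matches GRCm38, in the CD4-titled (red circles) and mixed (blue squares) libraries; right, share (%) of each subgroup among clonotypes of the 10 informative subgroups, for matching (red circles) and other (yellow triangles) clonotypes of the CD4-titled library and matching clonotypes of the mixed library (blue squares). Bars are exact 95% intervals. TRAV5 is at 16.1% in the yellow triangles and near 6.3% in both others.

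Of 42 TRAJ genes, 23 were higher and 19 lower in the CD4-titled library, with a median log2 ratio of 0.10. TRAJ35 (chromosome 14, 54183774 to 54183838) rested on 41 and 9 clonotypes, 0.856% (0.615 to 1.16) and 0.318% (0.145 to 0.602), a log2 ratio of 1.37. TRAJ35 has 2 alleles in these calls and, as given above, 48 of 53 of its CD4-titled chains carried the one not found in the mixed library. TRAJ52 (54165316 to 54165381) made up 2.88% (2.42 to 3.39) and 1.52% (1.10 to 2.04), a log2 ratio of 0.91, and here the mixed library lay below the 1.93% to 3.24% of the single-node libraries. TRAJ2, at the far end of the locus, made up 1.06% (0.793 to 1.40) and 0.635% (0.377 to 1.00), a log2 ratio of 0.72. Lower in the CD4-titled library were TRAJ22 with 3.03% (2.56 to 3.55) and 5.15% (4.37 to 6.03), TRAJ30 with 2.11% (1.72 to 2.56) and 3.53% (2.88 to 4.28), and TRAJ33 with 1.90% (1.53 to 2.33) and 3.04% (2.44 to 3.74). Their log2 ratios were -0.77, -0.74 and -0.68.

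TRAJ genes are numbered from the constant gene outward, so high numbers lie nearest the V genes and are reached by first rearrangements. Genes numbered 40 and above made up 33.4% of CD4-titled clonotypes (32.1 to 34.7) and 29.1% of mixed ones (27.4 to 30.8), with single-node libraries at 31.1% to 36.7%. Of these 14 genes, 9 were higher in the CD4-titled library with a median log2 ratio of 0.26, against 14 of the 28 genes under 40 with a median of 0.01. Across the 42 genes the Spearman correlation of gene number with log2 ratio was 0.13, a description over genes that share both libraries. Among TRA chains of all subgroups that match the reference the share of high-numbered genes was 28.2% and 28.8%, so the difference was absent there. That set is wider than the informative subgroups. It includes TRAV7, of which 37.6% to 47.4% of chains also matched in the 5xFAD single-node libraries. TRAV17, TRAV19 and TRAV21, which lie at the J end of the V genes, joined TRAJ genes of 40 and above in 144 of 177 CD4-titled clonotypes (81.4%, 74.8 to 86.8) and in 76 of 89 mixed ones (85.4%, 76.3 to 92.0). The other subgroups, with TRAV1 counted in, did so in 31.5% (30.2 to 32.9) and 27.2% (25.6 to 28.9). TRAV1, farthest from the J genes, did so in 2 of 31 and 0 of 13.

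**Figure D3:**
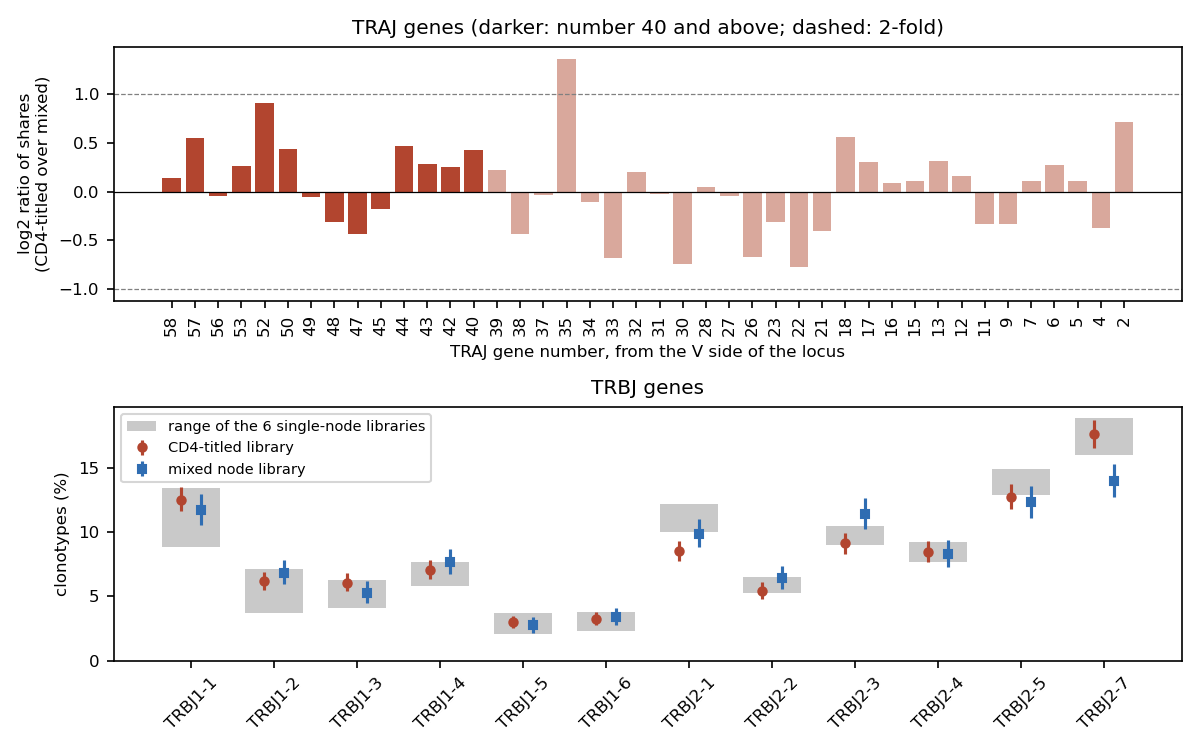
Top, log2 ratio of clonotype shares (CD4-titled over mixed) for 42 TRAJ genes in locus order, with genes numbered 40 and above in dark red and 2-fold as dashed lines; bottom, share of clonotypes (%) of 12 TRBJ genes in both libraries with exact 95% intervals and the range of the 6 single-node libraries in grey. TRAJ35 alone passes the dashed line, and TRBJ2-7 is higher in the CD4-titled library.

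TRB junctions were slightly shorter in the CD4-titled library. Their mean length was 41.5 nucleotides (SD over clonotypes 4.07) against 42.0 (SD 4.20), a difference of -0.43, with medians of 42 in both. The single-node libraries had means of 41.6 to 41.9, so the CD4-titled library lay just below and the mixed library just above them. The difference went the same way within 15 of 20 TRBV genes. It was largest in TRBV12-2, with 41.1 against 43.0 over 42 and 37 clonotypes, and TRBV13-1 was longer in the CD4-titled library, with 41.7 against 40.9. With CD4-titled clonotypes weighted to the TRBV and TRBJ use of the mixed library the difference was -0.34. Among clonotypes with a D gene call, 73.5% and 74.4% of all, the added bases averaged 3.26 (SD 2.24) and 3.42 (SD 2.19). Clonotypes with no added base made up 8.91% (7.99 to 9.90) and 6.92% (5.88 to 8.09) of these. The first D gene, TRBD1, made up 62.2% and 61.4% of D calls.

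**Figure D4:**
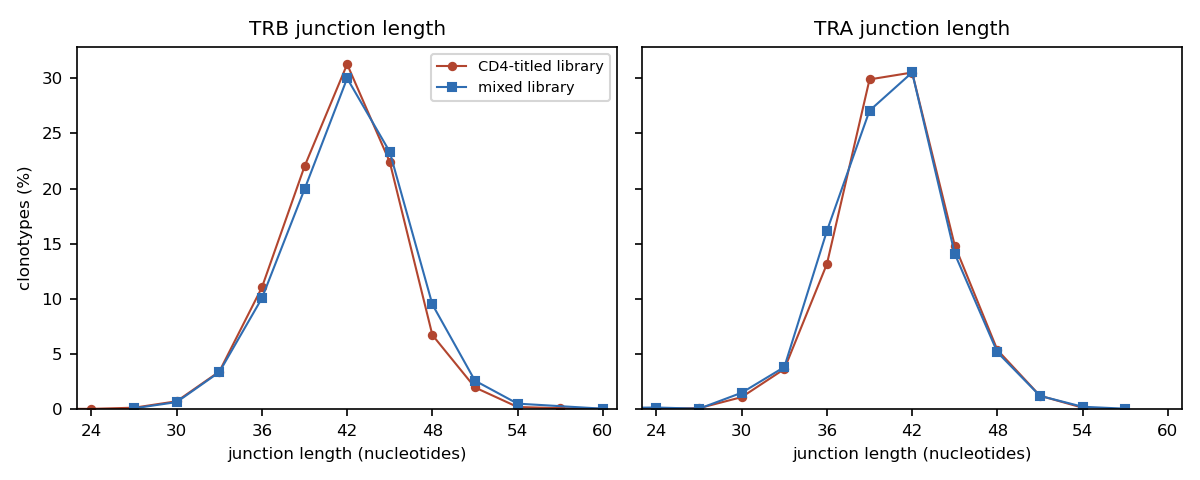
Share of clonotypes (%) by junction length in nucleotides for TRB (left) and TRA (right) in the CD4-titled (red circles) and mixed (blue squares) libraries, at lengths divisible by the codon size. The TRB curve of the CD4-titled library lies left of that of the mixed library, with means of 41.5 and 42.0.

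TRA junctions were near equal in length, with means of 40.7 (SD 3.89) and 40.5 nucleotides (SD 4.09). Added bases averaged 2.66 (SD 2.08) and 2.58 (SD 2.05), and 17.1% (16.0 to 18.2) and 18.9% (17.5 to 20.4) of TRA junctions had none. Net charge, counted as lysine and arginine less aspartate and glutamate between the conserved end residues, was higher in the CD4-titled library for both chains. For TRB it averaged -0.76 (SD 0.965) and -0.85 (SD 1.01), with single-node libraries at -0.90 to -0.81. For TRA it averaged 0.765 (SD 0.867) and 0.573 (SD 0.904), with single-node libraries at 0.483 to 0.638, so the CD4-titled library lay above them all. Among TRA chains of all subgroups that match the reference the difference in charge was 0.219, against 0.193 over all chains. Differences of this size are small beside the spread over clonotypes within a library.

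Expanded clones were small in both libraries and larger in the CD4-titled one. There 95 clones had 2 or more cells, 23 had 3 or more and the largest had 11 cells, and the mixed library had 33, 6 and a largest clone of 4. Cells in such clones made up 4.73% (4.15 to 5.36) and 2.54% (2.00 to 3.18). Since more cells find more repeats, the CD4-titled share expected at the 2873 cells of the mixed library was 3.32%, which is 0.78 percentage points above it. Equal totals do not make the cells per animal or per node equal, because the mixed library pools several node types and both genotypes. What this pooling does to the share of cells in clones was not tested. At 1123 cells, the size of the smallest library, the expected shares were 1.65% and 1.17%, within the range of the single-node libraries, 0.478% to 7.94%. The 2 largest clones of each library are shown by their junctions, from the conserved cysteine codon to the conserved phenylalanine codon, 5′ to 3′, with the bases between the ends of the V and J segments in capitals.
CD4-titled clone 1 TRB, TRBV5 with TRBJ2-2: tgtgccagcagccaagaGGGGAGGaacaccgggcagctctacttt
CD4-titled clone 1 TRA, TRAV5 with TRAJ40: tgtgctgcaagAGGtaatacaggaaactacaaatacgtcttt
CD4-titled clone 2 TRB, TRBV5 with TRBJ1-4: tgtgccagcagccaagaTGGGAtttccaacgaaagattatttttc
CD4-titled clone 2 TRA, TRAV4 with TRAJ48: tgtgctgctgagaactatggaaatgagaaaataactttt
Mixed clone 1 TRB, TRBV13-2 with TRBJ1-5: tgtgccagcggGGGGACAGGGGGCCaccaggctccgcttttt
Mixed clone 1 TRA, TRAV5 with TRAJ43: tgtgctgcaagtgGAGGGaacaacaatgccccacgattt
Mixed clone 2 TRB, TRBV5 with TRBJ2-5: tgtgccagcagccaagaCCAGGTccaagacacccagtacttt
Mixed clone 2 TRA, TRAV6 with TRAJ48: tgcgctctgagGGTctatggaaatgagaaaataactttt

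The largest CD4-titled clone had 11 cells and 213 UMIs, 0.223% of cells (0.111 to 0.399), and 10 of its cells were listed in the repeat. Its TRAV5 chain did not match the reference. The second had 6 cells and a TRA junction with 0 bases between V and J. The next were TRBV19 with TRBJ1-3 and TRAV3 with TRAJ26 (5 cells), TRBV23 with TRBJ1-4 and TRAV7 with TRAJ26 (5 cells), and TRBV13-3 with TRBJ1-5 and TRAV6 with TRAJ32 (4 cells). In the mixed library the largest clone had 4 cells, 0.139% (0.0379 to 0.356), and the other 4 named had 3 cells each, using TRBV5, TRBV29, TRBV4 and TRBV15 with TRAV6, TRAV5, TRAV6 and TRAV13. None of these 10 clones had a cell in the other library, by both chains or by the TRB chain alone. TRBV19 was the commonest TRBV gene among the expanded CD4-titled clones, in 16 of 95 (16.8%, 9.94 to 25.9), against 7.51% of all clonotypes. TRAV14 was the commonest TRAV subgroup there, in 17 of 95 (17.9%, 10.8 to 27.1), against 11.3%.

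**Figure D5:**
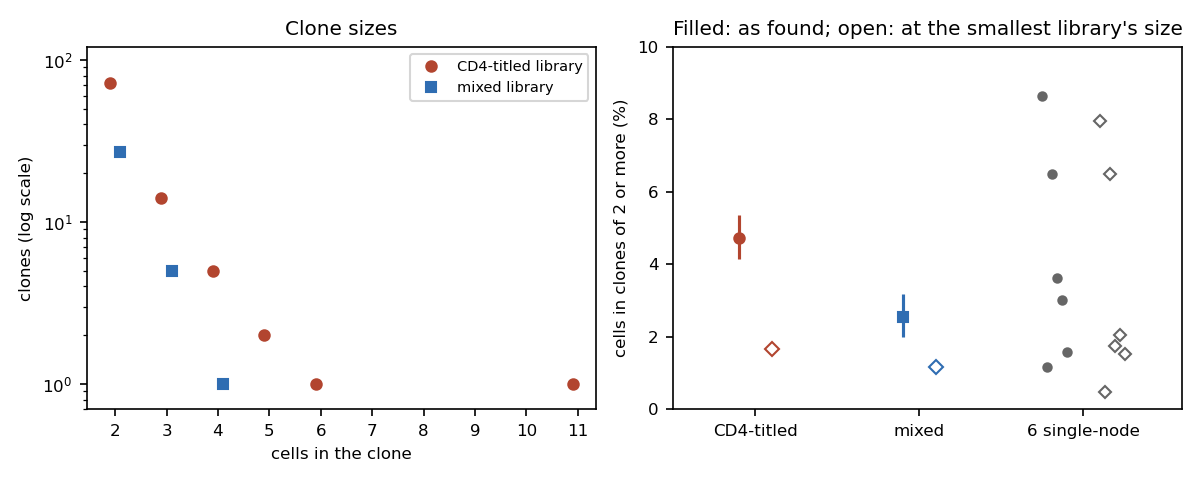
Left, number of clones (log scale) by cells per clone in the CD4-titled (red circles) and mixed (blue squares) libraries; right, cells in clones of 2 or more (%) as found (filled, with exact 95% intervals for both libraries) and the share expected at the size of the smallest library (open), with the 6 single-node libraries in grey. The CD4-titled library has the clone of 11 cells, and at equal total cells, not equal cells per animal or node, both libraries lie within the spread of the single-node libraries.

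No clonotype with identical nucleotides in both chains was found in both libraries (0 of 4792 and 0 of 2833). A count of 0 allows up to 0.221 shared per 1000000 pairs of clonotypes. Single chains were shared more often. By nucleotides 10 TRB chains were in both, 0.210% of the distinct TRB chains of the CD4-titled and 0.355% of those of the mixed library, and 33 TRB chains were in both by amino acids. For TRA, 115 chains were shared by nucleotides, 2.48% and 4.13% of the distinct TRA chains, and 226 by amino acids. That is 8.91 shared TRA chains per 1000000 pairs (7.35 to 10.7), and each library shared TRA chains with the single-node libraries at 7.86 to 9.68 (CD4-titled) and 7.04 to 13.7 (mixed) per 1000000 pairs.

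Shared TRA chains were those that need few added bases. Of the 115, 65 (56.5%) had no added base in the CD4-titled library, against 14.8% of its other TRA chains. In the mixed library 64 (55.7%) had none, against 16.5%. The shared chains averaged 40.2 nucleotides, against 40.8 and 40.6 for the others. Shown are both shared TRA chains found in 5 single-node libraries and, of those found in 4, the one carried by most clonotypes. They hold no base between V and J and so read as V sequence running into J sequence.
TRAV13 with TRAJ56: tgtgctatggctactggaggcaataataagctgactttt
TRAV14 with TRAJ22: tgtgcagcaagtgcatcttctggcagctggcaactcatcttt
TRAV5 with TRAJ13: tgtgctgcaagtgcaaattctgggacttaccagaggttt

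The first was carried by 3 CD4-titled clonotypes and 1 mixed clonotype, and by 5 of the 6 single-node libraries. The second was carried by 1 CD4-titled and 7 mixed clonotypes and also by 5 of 6. The third was carried by 4 and 1 clonotypes and by 4 of 6. All 7 mixed clonotypes with the second had a V region that matches the reference, and the CD4-titled one did not. Among the 10 shared TRB chains, 2 had no base between V and J and 1 had a single such base, and these 3 are shown for the same reason.
TRBV13-2 with TRBJ2-5: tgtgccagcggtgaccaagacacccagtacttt
TRBV4 with TRBJ2-7: tgtgccagcagctcctatgaacagtacttc
TRBV13-1 with TRBJ2-3: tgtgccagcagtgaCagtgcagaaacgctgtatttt

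Invariant natural killer T (iNKT) cells, which see lipids on CD1d, use a TRA chain of TRAV11 and TRAJ18 whose junction has a fixed length. Mucosal-associated invariant T (MAIT) cells, which see vitamin B metabolites on MR1, carry TRAV1 joined to TRAJ33. Chains with the iNKT form of 45 nucleotides were found in 0 of 4930 CD4-titled cells, a count that allows up to 0.0609%, and in 3 of 2873 mixed cells (0.104%, 0.0215 to 0.305). That limit lies within the interval of the mixed library, so a difference was not detectable at this depth. All 3 mixed cells paired the chain with TRBV13-1 or TRBV13-3, and TRBV13 genes are among those known for iNKT cells. In the single-node libraries there were 3, 6 and 5 such cells in dCLN, sCLN and iLN of WT and 0 in each of 5xFAD. Those counts of 0 allow up to 0.109%, 0.129% and 0.261%, each from 1 library. The sCLN library of 5xFAD also held 2 cells with TRAV11 and TRAJ18 at another junction length. Counted at any junction length, TRAV11 with TRAJ18 was in 4 mixed and 0 CD4-titled cells. The MAIT form of 36 nucleotides was found in 1 cell of each library, 0.0203% (0.000514 to 0.113) and 0.0348% (0.000881 to 0.194), paired with TRBV13-1 and TRBV1. In dCLN, sCLN and iLN there were 5, 4 and 4 such cells in WT and 3, 2 and 4 in 5xFAD. The shares in these single-node libraries were 0.086% to 0.408%, above both compared libraries. Counted at any junction length, TRAV1 with TRAJ33 was in 2 mixed cells and 1 CD4-titled cell. The junctions are shown because both forms can be read from them.
iNKT mixed, paired with TRBV13-1 and with TRBV13-3: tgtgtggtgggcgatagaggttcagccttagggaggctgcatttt
iNKT mixed, paired with TRBV13-3: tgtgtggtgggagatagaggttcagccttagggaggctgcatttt
MAIT CD4-titled, paired with TRBV13-1: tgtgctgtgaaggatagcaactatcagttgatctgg
MAIT mixed, paired with TRBV1: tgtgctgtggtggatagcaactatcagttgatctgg

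TRAV11 was rare with any J gene, in 5 CD4-titled and 8 mixed clonotypes (0.104%, 0.0339 to 0.243, and 0.282%, 0.122 to 0.556). TRAJ18, in contrast, was used by 2.94% (2.48 to 3.46) and 1.98% (1.50 to 2.56) of clonotypes, a log2 ratio of 0.57, almost always with other V genes. Its gene lies at 54200777 to 54200842 of chromosome 14.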

How the data were processed

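Each library was 1 table of assembled contigs. Per the labels' protocols a 10x Genomics 5′ immune profiling kit was used. The submitters' processing notes list Cell Ranger 6.0.1, Seurat 4.1.0 and mm10 without saying what each was used for. Genes were called by IgBLAST, per the file headers, and the allele set is not given in the sources used here. UMI and read counts were deposited per contig as raw whole numbers. V identity was deposited as a fraction, and junction and added-base lengths in nucleotides.

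Productive contigs alone were used. The TRA chain with more UMIs was kept, and barcodes over the chain limit were set aside, with no other doublet caller. A clonotype was V gene, J gene and junction nucleotides of both chains. Log2 ratios of clonotype shares used a pseudocount of 0.5, features needed a mean of 20 clonotypes, and a call is a ratio of at least 2-fold. No test was made, since each side had 1 library. The calculation was checked on simulated data. A count of 0 was given a limit of 3 counts. Expected clone shares at fewer cells used the rarefaction formula. Named were all TRBJ genes, features past 2-fold, the largest ratios up to 3 a direction in each class, listed genes and the 5 largest clones. Members, lists and rules were chosen with earlier results of these data known. V regions were searched in GENCODE M21 transcripts of GRCm38, which also gave positions. A list of TRBV genes absent from SJL mice was wrongly composed and is not reported. Alternatives are in the closing section. Python 3.11.15, pandas 2.3.3 and scipy 1.17.1 were used.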

Additional observations from a re-analysis of the deposited data

Results flagged for a closer look

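Nonproductive contigs were outside the comparison. The CD4-titled library listed 37 (0.284% of its contigs, 0.200 to 0.391) and the mixed library 32 (0.413%, 0.283 to 0.582), while the 6 single-node libraries listed 0. All were TRA chains with a junction out of frame, and 6 and 4 of them were on cells used here.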

How the results depend on the processing

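Of 100 alternative values for comparisons, 84 stayed near the reported value and 16 moved. The count of features at least 2-fold higher in the CD4-titled library (2) became 1 with every productive chain counted (TRAV5), 1 with ambiguous gene calls left out (TRAJ35), 1 with a mean of at least 50 clonotypes (TRAV5), 0 with TRA chains of V identity 1, 4 with contigs of at most 600 nucleotides (TRAJ2, TRAJ52, TRAV5 and TRAV9) and 14 with TRAV by gene. The count in the other direction (3) became 4 with contigs of at most 600 nucleotides (TRAV12 added), 5 with ambiguous calls left out (TRAV16 and TRAV19 added), 7 with no minimum, where the 4 added rest on at most 14 clonotypes in a library, and 18 with TRAV by gene. The TRAV9 log2 ratio of 0.12 became 1.21 with contigs of at most 600 nucleotides and -0.25 in reference-matching chains of informative subgroups. That of TRAV4 with TRAV14, 0.08, became 0.66 with ambiguous calls left out and 0.28 in those matching chains. That of TRAJ 40 and above, 0.20, became 0.071 with V identity 1 and -0.030 in reference-matching chains of all subgroups. The difference in cells in clones, 2.19 percentage points, became 0.78 at the smaller number of cells. Leaving out ambiguous calls drops clonotypes of subgroups with several copies, which raises the shares of single-copy subgroups. The cause of these shifts was not otherwise tested.

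Of 212 alternative values for single genes, 201 stayed near, 9 moved and 2 reversed. Near meant within the counting error of the reported ratio, and reversed was used only where that ratio was at least 2-fold. Smaller ratios that changed sign are thus counted as near or moved. TRAV1, at 0.46, stood at -0.22 with ambiguous calls left out and at -0.14 in matching chains of informative subgroups, both counted as near. TRAV5, at 1.17, turned to -0.057 with V identity 1 and to -0.39 in reference-matching chains, and moved to 0.021 in those of informative subgroups. With ambiguous calls left out TRAV21 moved from 0.76 to 0.0755, TRAV12 from -0.86 to 0.47 and TRAV16 from -0.67 to -1.16. In reference-matching chains of all subgroups TRAV1 moved from 0.46 to -0.55, TRAV12 to -0.33 and TRAV16 to -1.23. With contigs of at most 600 nucleotides TRAV12 moved to -1.14 and TRBV19 from 0.19 to 0.85. TRBV12-1, TRBV29 and TRBV17 stayed at least 2-fold lower in the CD4-titled library under each alternative run for the count of features, except that TRBV17 is under a mean of 50 clonotypes and was not counted there. The repeat labelled 5xFAD and Cell Ranger's gene calls moved no value. Alternatives restricted to matching chains, weighted, or with Cell Ranger calls were chosen after seeing the data. With 1 library a side no replicate could be left out. No paired analysis was possible because no test was made. Low counts limit TRAJ35 and the invariant chains.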
